A study of Mus musculus with 9 samples.

Results

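The genes described here build the seal between the epithelial cells of the choroid plexus, the tissue in the brain ventricles that secretes cerebrospinal fluid. They are 33 genes of tight junctions, adherens junctions, desmosomes and cell polarity, chosen by name with earlier results of these data known. Every probe set annotated to exactly 1 of these symbols was taken, which gave 85 of the 45101 probe sets on the array. All 33 genes had at least 1 probe set, and 31 genes with 62 probe sets were called present often enough to be tested, on at least 4 of the 9 arrays.

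The tissue was choroid plexus captured by laser in male C57BL mice that were 78 weeks old and ate normal chow. There were 4 arrays of apoE-/- tissue, from mice without apolipoprotein E, and 5 of wild-type tissue, with 1 sample on each array and no other treatment in either group. The labels do not say how the allele was made, on which C57BL substrain, or how many animals a sample came from, and the p-values below reflect only how much these arrays varied, some of which may be technical. The study asked how old choroid plexus without apolipoprotein E differs from wild-type tissue of that age.

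Blood vessels of the choroid plexus are leaky, and the barrier between blood and cerebrospinal fluid lies in its epithelium. Claudins and the MARVEL proteins occludin, tricellulin and Marveld3 span the membrane at tight junctions, and scaffold proteins such as ZO-1 and cingulin tie them to the actin cytoskeleton. Below them, cadherins bound to catenins form adherens junctions and desmosomes anchor keratin filaments, while the Par and Crumbs complexes set which face of the cell is apical. Claudins differ in what they let through: claudin-2 forms pores for sodium ions and water, whereas claudin-1 and claudin-3 tighten the seal.

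The labels and the tissue were checked first. Apoe had normalised intensities of 13.6 to 48.0 on the apoE-/- arrays, where it was never called present, and of 18426 to 22810 on the wild-type arrays, so that it was at least 956-fold lower (limma, adjusted p = 5.25e-11). All 13 epithelial markers found on the array, among them Ttr, Folr1 and Kcnj13, were called present on all 9 arrays, and their mean per array ranged from -0.02 to 0.05 in apoE-/- and from -0.05 to 0.05 in wild-type around the overall mean on the log2 scale. Other cells of the plexus were also in the captures: 10 of 12 endothelial markers and 11 of 12 fibroblast and mural markers were present on every array. So were 5 of 7 astrocyte markers and 4 of 8 markers of ependyma and motile cilia. Of 10 neuron markers, Snap25, Syt1 and Nefl were present on every array and Tubb3, Nefm and Camk2a on none. Of 7 oligodendrocyte markers, Mbp, Cnp and Cldn11 were present on every array and Mog, Mag and Olig2 on none. Cldn11 is also a claudin of the wider junction list below, so its presence need not come from oligodendrocytes. The oligodendrocyte values below rest on 3 tested markers, Cldn11, which read higher in apoE-/-, and 2 that read lower. The marker means of neurons and oligodendrocytes were highest on wild-type replicate 1, at 0.60 and 0.90. Median log2 differences, apoE-/- minus wild-type, of tested markers were 0.16 for endothelium, 0.16 for fibroblast and mural cells and 0.19 for astrocytes. For ependyma and motile cilia the median was 0.13, for neurons -0.23 and for oligodendrocytes -0.066. Of these lists, only 1 of 12 fibroblast and mural markers passed the test, 8.33% beside 1.66% of all genes. Macrophage markers were higher in apoE-/-. Of 11 on the array 8 were tested and 3 of these passed, 37.5% beside 1.66% of all genes. Their array means were 0.027 to 0.47 against -0.50 to 0.042, and their part in the results below was not tested. In tissue of mixed cells, fewer cells of a type and less RNA per cell cannot be told apart.

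No junction or polarity gene passed the test between genotypes. Of the 62 tested probe sets of these genes, 0 were called by limma at an adjusted p under 0.05, where 2.59% of all 21478 tested probe sets were called, 0.67% as higher and 1.92% as lower in apoE-/-. At an unadjusted p under 0.05 there were 10 of the 62, 7 higher and 3 lower, beside 16.5% of all tested probe sets. The smallest adjusted p among them was 0.0844. The 3 lower at an unadjusted p under 0.05 included a probe set of Pard3 that met the detection filter only through wild-type arrays.

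With 1 probe set per gene, the brightest of those tested, 0 of 31 genes passed by limma, beside 1.66% of all 11089 genes, and 2 had an unadjusted p under 0.05, beside 14.8% of all genes. These 2 were Marveld3, lower, and Jam3, higher in apoE-/-. The log2 differences, apoE-/- minus wild-type, ran from -0.35 for Marveld3 to 0.31 for Jam3, with a median of 0.058 beside 0.017 over all genes. The 95% interval lay within a 1.5-fold difference in either direction for 26 of the 31 genes and within a 2-fold difference for all 31. The 5 genes whose intervals reached past 1.5-fold were Cldn22, Jam3, Marveld2, Jup and Pard6b. Among all genes, 73.9% had intervals within 1.5-fold and 95.1% within 2-fold. Of the 62 tested probe sets of junction and polarity genes, 46 (74.2%) had intervals within 1.5-fold and 59 (95.2%) within 2-fold. For all tested probe sets these shares were 64.4% and 91.7%.

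**Figure D1:**
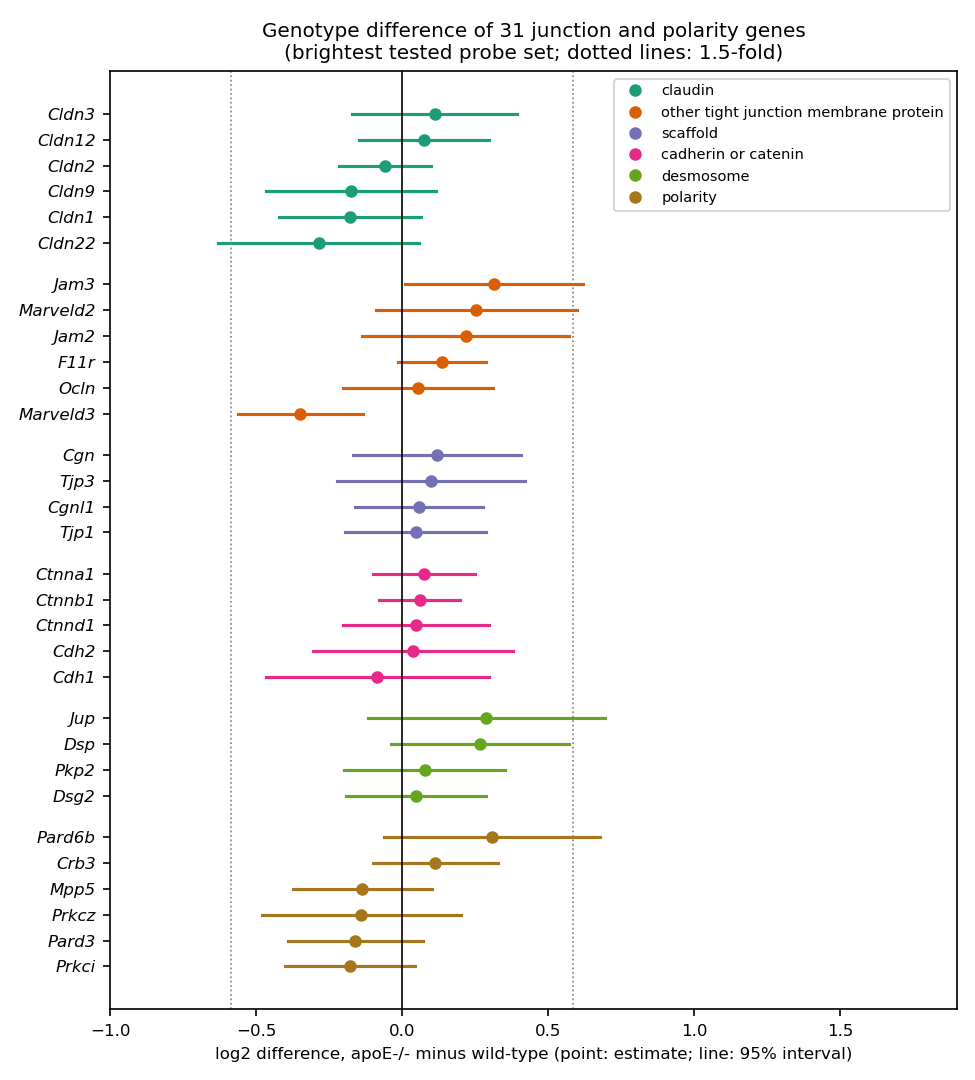
Log2 difference between apoE-/- and wild-type for the 31 tested junction and polarity genes, grouped by role, with the 95% interval of the limma fit as a line and 1.5-fold marked by dotted lines. The estimates lie between -0.35 and 0.31, and 29 of the 31 intervals include 0.

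Claudins form the paracellular strands themselves, and 6 of the 8 were tested. Cldn2, the pore-forming claudin, had intensities of 8573, 7860, 8422 and 7133 in apoE-/- replicates 1 to 4. In wild-type replicates 1 to 5 they were 7628, 8242, 8731, 8720 and 8296. The arrays of both groups were interleaved, and the log2 difference was -0.060 ± 0.073 (SE). For this brightest probe set the interval of -0.22 to 0.098 holds neither a 1.5-fold rise nor a 1.5-fold fall. A dimmer probe set of Cldn2, given per array below, read 0.51 and did not pass (limma, adjusted p = 0.257). Its interval of 0.044 to 0.97 does hold a 1.5-fold rise. Cldn1, a sealing claudin, read 3772, 3611, 3795 and 4413 in apoE-/-. The wild-type arrays read 3742, 4015, 5766, 4290 and 4428, and wild-type replicate 3 stood above all others. Its log2 difference was -0.18 (interval -0.42 to 0.066, adjusted p = 0.467).

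Cldn22 showed the largest difference among claudins by brightest probe set. It read 650, 465, 439 and 479 in apoE-/- and 788, 624, 608, 626 and 457 in wild-type, and the ranges overlapped widely, with wild-type replicate 1 highest (log2 difference -0.29, interval -0.63 to 0.059). Cldn9 read 822, 834, 740.5 and 732 in apoE-/- and 1090, 839, 1055, 752 and 732.5 in wild-type. Wild-type replicates 1 and 3 were high and the rest overlapped, for a log2 difference of -0.17 (adjusted p = 0.561). By the brightest probe set, Cldn3 (0.11) and Cldn12 (0.074) had intervals of -0.17 to 0.39 and -0.15 to 0.30. The dimmest tested probe set of Cldn3 read 0.50 (interval 0.088 to 0.92, limma, adjusted p = 0.208) and did not pass. Its remaining tested probe sets read -0.049 and -0.073.

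Cldn10 and Cldn19 were called present on 0 of the 9 arrays, each by a single probe set, and were not tested. The probe set of Cldn10 had intensities of 172 to 205 in apoE-/- and 141 to 158 in wild-type, so the groups did not overlap. With no present call on any array these values were not taken as signal, and no fold is given. A second probe set of Cldn9 was likewise called present on 0 arrays.

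**Figure D2:**
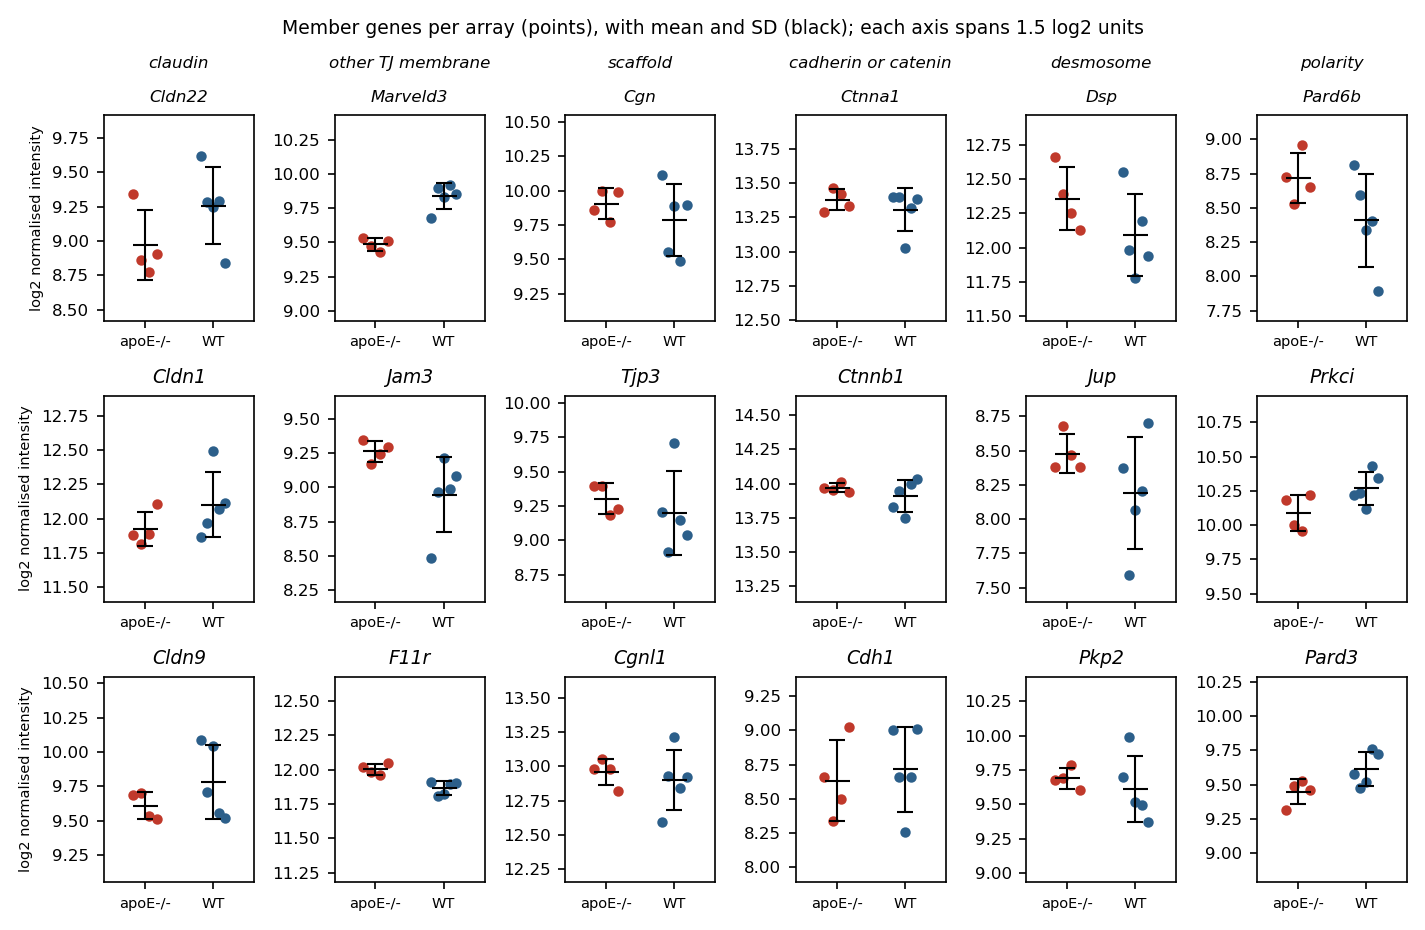
Log2 normalised intensity on each array for the 3 genes of smallest p in each role, with the mean and SD in black (apoE-/- in red, wild-type, WT, in blue, arrays from left to right in order of replicate number, each axis 1.5 log2 units tall). The groups overlap in every panel except those of Marveld3, where all apoE-/- arrays are lower, and F11r, where all are higher.

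Of the other membrane proteins of tight junctions, Marveld3 came nearest to passing. This relative of occludin and tricellulin read 742, 712, 689 and 728 in apoE-/-. In wild-type it read 819, 956, 911, 969 and 924. Every apoE-/- array lay below every wild-type array, with means of 9.49 ± 0.046 (SD, n = 4) against 9.84 ± 0.096 (SD, n = 5) on the log2 scale. That is 1.27-fold lower, with an interval of -0.56 to -0.14 on the log2 scale and an adjusted p of 0.0844, which did not pass. Its other tested probe set read 0.075 (interval -0.22 to 0.37), and the mean of both probe sets read -0.14 (adjusted p = 0.505).

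F11r encodes JAM-A, an immunoglobulin-like adhesion molecule of the apical junction. It read 4152, 4049, 3988 and 4242 in apoE-/- and 3847, 3584, 3620, 3821 and 3824 in wild-type. The apoE-/- arrays were all above the wild-type arrays, yet the difference was 1.10-fold and did not pass (interval -0.015 to 0.29 on the log2 scale, adjusted p = 0.361). Jam3, a family member, read 651, 575, 605 and 626 in apoE-/- against 359, 501, 594, 507 and 541 in wild-type. Wild-type replicate 1 was far below the others and replicate 3 lay within the apoE-/- range (log2 difference 0.31, adjusted p = 0.285). Jam2 read 0.22 (interval -0.14 to 0.57).

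Ocln, occludin, had a log2 difference of 0.053 (interval -0.20 to 0.31). It read 3301, 3144, 3681 and 3279 in apoE-/- and 2355, 3704, 3547, 3259 and 3459 in wild-type, where replicate 1 was the lowest of all 9 arrays. Marveld2, tricellulin, which closes the corners where 3 cells meet, read 0.25 (interval -0.090 to 0.60). The arrays of both genotypes were fully separate for 3 of the 62 probe sets, 1 each of Marveld3, F11r and Crb3, beside 6.89% of all tested probe sets.

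Scaffolds showed the same closeness of the groups. Tjp1, which encodes ZO-1 and lies on chromosome 7 as Apoe does, read 1918, 1851, 1756 and 2207 in apoE-/- and 1772, 2055, 1504, 2011 and 2055 in wild-type. Both groups held high and low arrays, and its log2 difference was 0.046 (interval -0.20 to 0.29). Cgnl1, paracingulin, read 8101, 8490, 8079 and 7234 against 6185, 7796, 9504, 7361 and 7768. The wild-type arrays spread to both sides of the apoE-/- arrays (0.058, interval -0.16 to 0.28). Cgn, cingulin, read 927, 1025, 875 and 1020 against 1109, 750, 946, 719.7 and 950.5 (0.12). Tjp3, ZO-3, read 675.5, 674, 582 and 599.7 against 589.6, 482, 839, 567 and 525 (0.10). In both, wild-type arrays were the highest and the lowest, and the intervals were within 1.5-fold.

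By the brightest probe set, all 5 cadherins and catenins had intervals within 1.5-fold. Dimmer probe sets of Ctnnb1 (0.31), Ctnnd1 (0.30) and Ctnna1 (-0.27) had intervals that reached past 1.5-fold and did not pass. Ctnnb1, beta-catenin, which links cadherins to the cytoskeleton and also acts in Wnt signalling, read 16046, 15898, 16525 and 15738 in apoE-/-. It read 14561, 15818, 13761, 16318 and 16756 in wild-type, on both sides of the apoE-/- values. Its log2 difference was 0.059, with an interval of -0.080 to 0.20, among the narrowest here. The second brightest probe set of Ctnnb1 read 0.28 (interval 0.001 to 0.55, limma, adjusted p = 0.300) and did not pass. Ctnna1, alpha-catenin, read 10031, 11305, 10968 and 10337 against 10780, 10780, 8362, 10208 and 10673. Wild-type replicate 3 was low and the other arrays were mixed (0.074). Ctnnd1, p120-catenin, had a log2 difference of 0.046.

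The epithelial cadherin Cdh1 read 405, 324, 362 and 522 in apoE-/- and 512, 405, 305, 405 and 515 in wild-type. The neural cadherin Cdh2 read 703, 414, 486 and 628 against 649, 544, 460, 511 and 515. Both were called present on all 9 arrays and in both the arrays of a group spread further than the group means lay apart (log2 differences -0.085 and 0.036, intervals -0.47 to 0.30 and -0.31 to 0.38).

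By the brightest probe set, desmosome genes read slightly higher in apoE-/- in 4 of 4 cases, as did the 4 scaffolds and 5926 of all 11089 genes. Of the desmosome genes, 0 passed by limma and 0 had an unadjusted p under 0.05. Dsp encodes desmoplakin, the plaque protein that binds keratins. It read 6466, 5365, 4871 and 4486 in apoE-/- and 6011, 4054, 3510, 4695 and 3919 in wild-type, with wild-type replicate 1 among the higher apoE-/- arrays (log2 difference 0.27, interval -0.038 to 0.57). A second probe set of Dsp followed it at 0.32 (adjusted p = 0.225). Jup, plakoglobin, shared by desmosomes and adherens junctions, read 333, 410, 354 and 333 in apoE-/- and 332, 194, 268, 295 and 417 in wild-type. The wild-type arrays spanned both the lowest and the highest value (0.29, interval -0.12 to 0.69). Pkp2, plakophilin-2, read 818, 828, 885 and 778.5 against 830, 1018, 731, 722 and 661. Its wild-type arrays also enclosed the apoE-/- arrays (0.077). Dsg2, a desmosomal cadherin, had a log2 difference of 0.047, and its other tested probe sets read from -0.091 to 0.87.

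Of the polarity genes, 4 read lower and 2 higher, again with 0 passing. Prkci, an atypical protein kinase C of the Par complex, read 1165, 1023, 995 and 1191 in apoE-/- and 1194, 1205, 1109, 1378 and 1301 in wild-type. The ranges met at apoE-/- replicates 1 and 4 (log2 difference -0.18, interval -0.40 to 0.045). Pard6b, its adaptor, read 423, 369, 498 and 402 against 449, 386, 324, 338 and 238. Wild-type replicate 5 was lowest and replicate 1 lay above 3 of the 4 apoE-/- arrays (0.31, interval -0.062 to 0.68).

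Pard3, the scaffold of the Par complex, read 638, 719.5, 738 and 705 against 765, 713, 732, 865 and 846, with the ranges overlapping (-0.16, adjusted p = 0.491). Its second tested probe set was called present on 5 of 5 wild-type and 0 of 4 apoE-/- arrays, where 3 calls were marginal and 1 absent. Such a split of calls occurred for 0.14% of all probe sets. Its intensities nevertheless overlapped, at 441, 337, 406 and 298 against 476, 467, 403, 493 and 466. The log2 difference was -0.33 (interval -0.62 to -0.032, limma, adjusted p = 0.251) and did not pass. This probe set met the detection filter only through the wild-type arrays, the group in which it read higher.

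The Crumbs complex was split in sign. Crb3, its small membrane protein, read 0.11 by the brightest probe set and 0.26 by a dimmer one. On the dimmer probe set all apoE-/- arrays, at 793 to 1064, were just above all wild-type arrays, at 710 to 792 (adjusted p = 0.275). Mpp5, also called PALS1, which joins Crumbs to the tight junction, read -0.14, and another probe set of it read -0.35 (adjusted p = 0.225). Prkcz, the other atypical kinase, read -0.14 (interval -0.48 to 0.20).

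Several genes were read by more than 1 probe set, and their probe sets did not always give the same difference. Over all genes, 7285 pairs of a gene's brightest and another tested probe set were compared by their log2 ratio within each array, and 2.09% of pairs differed between genotypes (limma, adjusted p under 0.05). Of 31 such pairs in 20 junction and polarity genes, 1 passed, that of Cldn1, and 3 had an unadjusted p under 0.05, beside 16.6% of all pairs.

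The dimmer probe set of Cldn1 read 513, 550, 653 and 645 in apoE-/- and 258, 307, 471, 419 and 513 in wild-type. Wild-type replicate 5 met the lowest apoE-/- array, and replicates 1 and 2 were far below. By itself this probe set was 1.54-fold higher in apoE-/- and did not pass (log2 difference 0.62 ± 0.19, SE, adjusted p = 0.105), while the bright one read -0.18. The log2 ratio of the dim to the bright probe set was 0.80 higher in apoE-/- (interval 0.40 to 1.21, adjusted p = 0.0496), higher on 4 of 4 apoE-/- than on any wild-type array. That call was lost without any single array other than wild-type replicate 5, with an adjusted p of up to 0.155 without apoE-/- replicate 3, and without quantile normalization (0.0528). A ratio shows unequal change of the 2 probe sets and not which of them reads the Cldn1 message.

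For Cldn2 the difference between its probe sets did not pass. Its dimmer probe set read 1446, 1469, 912 and 1227 in apoE-/- and 643, 626, 968, 915 and 1416 in wild-type. The wild-type arrays differed more than 2-fold among themselves and reached the apoE-/- values, and the ratio to the bright probe set differed by 0.57 without passing (adjusted p = 0.290). For Marveld3 the ratio differed by 0.42 (adjusted p = 0.183), and for a dim probe set of Dsg2 by 0.82 (adjusted p = 0.342). That dim probe set of Dsg2 read 133 and 81.4 in wild-type replicates 1 and 3 and 346 to 485 on the other 7 arrays.

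Values for RNA quality are given beside these dimmer probe sets. The array carries control probe sets at the 3' and 5' ends of Gapdh, and the ratio of their deposited intensities was 1.02 to 1.09 in apoE-/- and 0.872 to 1.33 in wild-type. Wild-type replicate 1, with the highest ratio of 1.33, had the lowest wild-type intensity for the dimmer probe set of Cldn1 (258) and for the second brightest of Ctnnb1 (3737). Wild-type replicate 5, with the lowest ratio, had the highest wild-type intensity for both (513 and 6698) and for the dimmer probe set of Cldn2 (1416). The arrays between them did not follow this order: wild-type replicate 3, with the second highest ratio of 1.20, had the second highest wild-type intensity for all 3 probe sets (471, 5038 and 968), and the lowest for Cldn2 was on replicate 2 (626). The part of this ratio in the results was tested only as a covariate. With the log2 of this ratio as a covariate, chosen after seeing the data, the Cldn1 ratio differed by 0.73 (adjusted p = 0.0357) and 0 junction or polarity probe sets passed. The 3' to 5' ratio of the beta-actin controls was higher on every array, at 2.72 to 3.31 in apoE-/- and 2.29 to 3.67 in wild-type. The part of the actin ratio in the results was not tested.

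**Figure D3:**
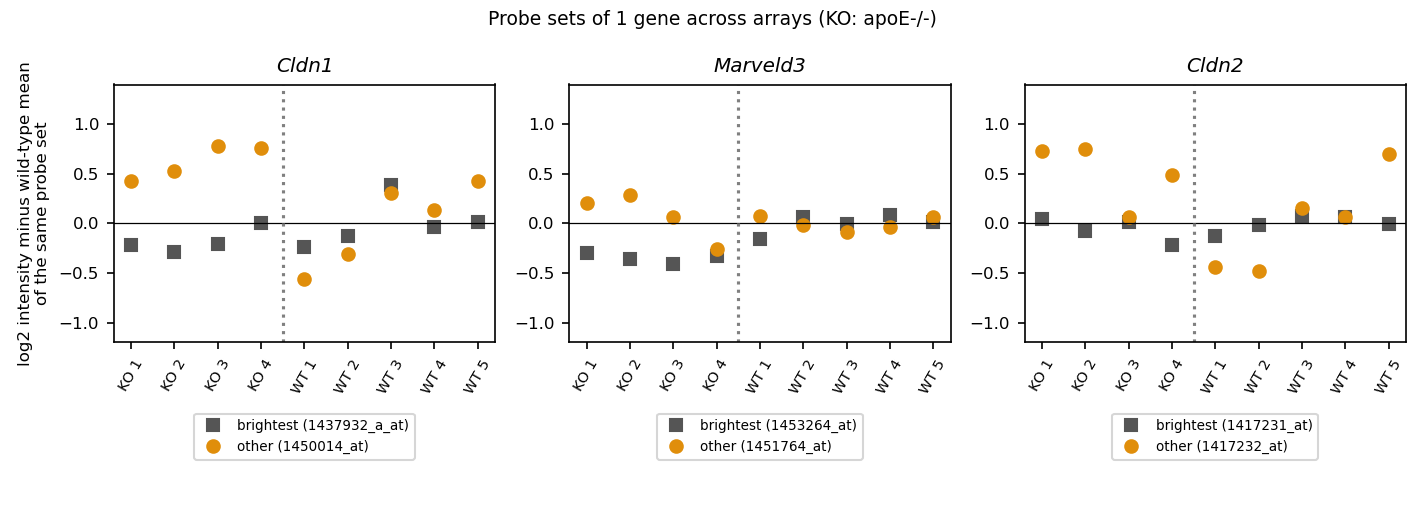
Log2 intensity of a gene's brightest (grey squares) and other (orange circles) tested probe set on each array, as the distance from that probe set's own wild-type mean, for the 3 genes whose pairs had the smallest p (KO, apoE-/-, WT, wild-type). For Cldn1 the orange circles stand above the grey squares on every apoE-/- array, while for Marveld3 and Cldn2 the ratios of the groups overlap.

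Across arrays, the mean of the 31 genes, each centred on its own mean, was 0.085, -0.028, -0.0020 and 0.020 in apoE-/- replicates 1 to 4 and -0.027 to 0.0060 in wild-type. Apart from apoE-/- replicate 1 the arrays thus lay close together. The SD within a group ranged from 0.030 to 0.41 on the log2 scale over these genes. It was larger among wild-type arrays for 26 of 31 genes (83.9%), with a median of 0.22 against 0.12 in apoE-/-. Over all genes it was larger in wild-type for 58.9%, with medians of 0.19 and 0.17. Wild-type replicate 3 gave the lowest value for 9 of the 31 genes and the highest for 6, and over all genes it was lowest and highest for 17.3% each.

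A wider list of junction genes held 72 others, of which 68 had a probe set and 49 were tested. Of these, 1 was higher and 1 lower in apoE-/- by the brightest probe set, 4.08% in all beside 1.66% of all genes, and 13 (26.5%) had an unadjusted p under 0.05, beside 14.8% of all genes. Their median log2 difference was -0.032. Of the 82 tested probe sets of this list, 3 passed by limma (3.66%), beside 2.59% of all tested probe sets. The list was chosen with earlier results of these data known, so its shares cannot be read as a result about junction genes. Ctnnal1, alpha-catulin, a relative of alpha-catenin, read 5341, 5164, 5096 and 5055 in apoE-/- and 4139, 4078, 4317, 3840 and 4365 in wild-type. All apoE-/- arrays were above all wild-type arrays, and it rose 1.25-fold (log2 difference 0.32 ± 0.071, SE, adjusted p = 0.0284). Its second probe set read 0.40 (adjusted p = 0.153). Leaving out apoE-/- replicates 1, 2 or 3, or else wild-type replicates 2 or 4, ended the call, with an adjusted p of up to 0.0924. So did leaving out quantile normalization (0.0603) and scaling to the 75th percentile instead (0.0873), as did a fit with no detection filter (0.0529) or no mean-variance trend (0.10).

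Amotl1, an angiomotin-like protein that binds polarity scaffolds, read 1605, 1907, 1568 and 1130 in apoE-/- and 1999, 2763, 2125, 2385 and 2140 in wild-type. The groups did not overlap and it was 1.49-fold lower (-0.57 ± 0.14, SE, adjusted p = 0.0464). Its other probe set read 0.082, and the call depended on most arrays: it held when apoE-/- replicate 2 was left out, or wild-type replicate 1, and was lost for each of the others (adjusted p up to 0.117). It was also lost with no detection filter (0.0974), with probe sets present on at least 1 array (0.0533), with no mean-variance trend (0.116) and with the Gapdh ratio as a covariate (0.0618). Cxadr, an adhesion molecule of tight junctions and the receptor of coxsackie and adenoviruses, passed by 1 dim probe set, 1.51-fold higher (adjusted p = 0.0355). Its 3 other tested probe sets, the brightest among them, read -0.15 to 0.083. With 1 array left out, that call held for apoE-/- replicate 3 and wild-type replicate 5 and was lost for each of the others (adjusted p up to 0.112). It was also lost with no detection filter (0.0843) and with the Gapdh ratio as a covariate (0.0528).

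The next in order of p were Ybx3 (-0.52), a DNA-binding protein that associates with ZO-1, Sympk (-0.52), symplekin, Stk11 (0.35), the kinase LKB1 that acts in polarity, and Scrib (-0.39), a basolateral polarity scaffold. Their adjusted p ran from 0.0796 to 0.134 and did not pass. Sympk lies on chromosome 7, as Apoe and Tjp1 do, and the part of this position in its value was not tested. Among further claudins, Cldn5, which seals endothelium, read 0.0037 (interval -0.31 to 0.32), Cldn11, known from myelin, 0.34, Cldn15 -0.53 and Cldn6 -0.076, with 0 of these 4 passing.

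**Figure D4:**
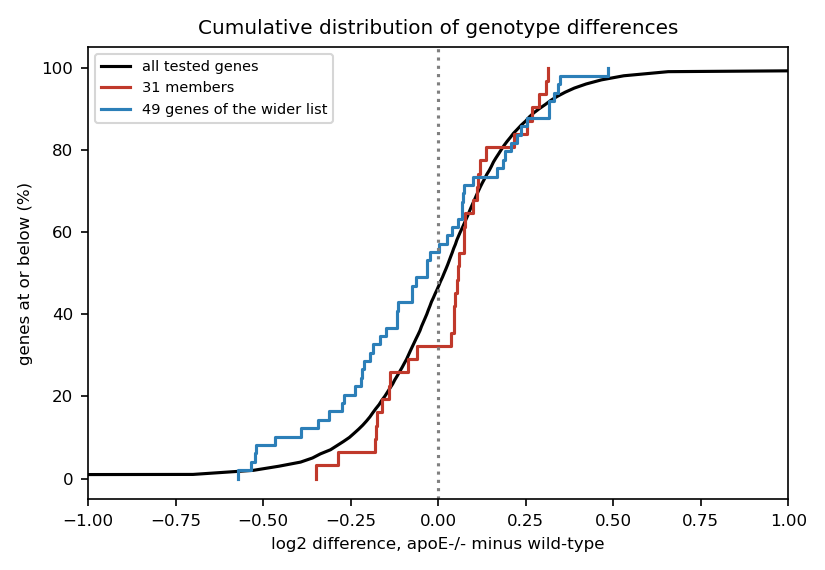
Share of genes at or below each log2 difference, apoE-/- minus wild-type, for the 31 junction and polarity genes (red), 49 genes of the wider list (blue) and all tested genes (black). The red curve spans -0.35 to 0.31 and the blue one -0.57 to 0.48.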

How the data were processed

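The values were made with GCOS 1.4, per the submitters' processing notes. The deposited intensity and detection call of each probe set were used. How background and summary were computed is not given in the sources used here. The mean after trimming 2% at each end was 500 on every array, and the series matrix repeated these values. The 9 columns of detection p were not used, and 18 of their values exceed 1.

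Array medians ranged over 0.214 on the log2 scale, so log2 intensities were quantile normalized, and intensities printed are these values back on a linear scale. Probe sets were tested where called present on at least 4 arrays, controls left out, with limma 3.58.1 in R 4.3.3 (two-sided, with a mean-variance trend and no term but genotype), adjusted by Benjamini-Hochberg over 21478 probe sets. Pairs of probe sets were fitted likewise on log2 ratios. Genes were named by the platform annotation, where 34958 probe sets had 1 symbol, 932 several and 9211 none listed here. Chromosomes are from GRCm38.p6. On simulated arrays with the spreads of these 21478 probe sets, limma recovered 29% of 1.5-fold and 77.5% of 2-fold changes. Each simulation changed 200 probe sets and drew noise independently for each probe set, so these shares hold for that setting only.

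Genes given per array were the 3 of smallest p in each role, genes whose probe sets were read apart, and those chosen after their values were seen (Cldn2, Ocln, Tjp1, Cdh2 and single further probe sets). The genes and lists were chosen with earlier results of these data known. Alternatives tried were other normalizations, detection filters, an offset, fits without trend, robust or weighted, the replicate number as a block, other readings of a gene and each array left out.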

Additional observations from a re-analysis of the deposited data

Results flagged for a closer look

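In 3 of the 62 groups of arrays behind the 31 genes, an end value lay apart from the rest: its gap to the nearest other array, divided by the range of the group, was above Dixon's 95% critical value for that number of arrays. Chance passes it in about 1 group in 20. Cldn3 was high in apoE-/- replicate 1, at 1037 with the next array at 794 (a ratio of 0.912). Ocln was low in wild-type replicate 1, at 2355 with the next at 3259 (0.717). Ctnna1 was low in wild-type replicate 3, at 8362 with the next at 10208 (0.785).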

How the results depend on the processing

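Under the alternatives tried, the count of junction and polarity genes called stayed at 0 except with array weights, where it was 1 (Marveld3, log2 difference -0.38, adjusted p = 0.0337), as it was for their probe sets. Marveld3 had an adjusted p of 0.0675 to 0.236 with 1 array left out. Of 682 gene values under 22 alternatives, 18 in 10 genes changed sign, none of them passing, and 7 moved by over 1 SE. Replicate numbers were shared by the groups. Same-numbered arrays correlated at -0.015 to 0.16 in their deviations and differently numbered arrays at -0.116 to 0.136. The array of apoE-/- replicate 1 correlated best with its own number (0.16), but the other apoE-/- arrays did not, so the numbers were not taken as pairs. With the replicate block, 2 probe sets passed, the dimmer one of Cldn1 (0.73, adjusted p = 0.0243) and the second brightest of Ctnnb1 (0.38, adjusted p = 0.0369), and 597 of all probe sets, while the dim probe set of Cxadr did not (adjusted p = 0.0617). The 556 calls among all probe sets became 329 without a detection filter, 309 without the mean-variance trend and 1078 with array weights, and 263 to 761 with 1 array left out (263 without apoE-/- replicate 3, 285 without wild-type replicate 4, 364 without wild-type replicate 2), while 0 junction or polarity probe sets passed with any 1 array left out. The 1 pair read apart, that of Cldn1, fell to 0 without quantile normalization and was 0 to 1 with 1 array left out, when all 152 pairs became 69 to 145 (69 without apoE-/- replicate 3, 75 without wild-type replicate 4). Of the wider list, whose alternatives were chosen after seeing the data, 2 genes passed, but 1 with scaling to the 75th percentile, 1 with no quantile step, 1 with probe sets present on at least 1 array, 1 with the Gapdh ratio as covariate, 0 without a detection filter, 0 without the trend, and 0 to 2 with 1 array left out (0 without apoE-/- replicates 1 or 3 or wild-type replicates 2 or 4). The cause of these changes was not tested. The number of arrays limits the precision.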
